A study of Mus musculus with 8 samples.

Results

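Antibody acts on cells through Fc receptors, and 8 genes for these receptors were followed here in the stromal vascular fraction (SVF) of gonadal white adipose tissue (WAT), the part of the fat pad that remains once the adipocytes are removed. They were chosen by name from the deposited gene count table, as the activating Fc gamma receptors Fcgr1, Fcgr3 and Fcgr4, the inhibitory receptor Fcgr2b, the shared gamma chain Fcer1g, the antibody transport receptors Fcgrt and Pigr, and the cytosolic antibody receptor Trim21. All 8 were found among the 54532 genes of the table, and all 8 were among the 15963 genes with enough reads to be tested. The rule used their names and roles, not a threshold on their values.

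Male C57BL/6J mice were fed a high-fat diet (HFD, 60% of calories from fat) from 6 weeks of age for 12 weeks (the age as the series design gives it; the methods give other ages for mice as obtained), and were allotted to groups by a glucose tolerance test. They were then switched to normal chow (NCD, 16% of calories from fat), and from that point received 2 mg/kg of antibody every 2 weeks for 6 weeks. The 4 anti-BAFF Ab-treated mice (mice 5, 7, 8 and 10) received the BAFF-neutralizing antibody Sandy-2, and the 4 control Ab-treated mice (mice 1, 2, 6 and 9) an isotype control antibody, IgG1k. SVF cells of a gonadal fat pad were collected at week 18 after red blood cells had been lysed, and sequenced as bulk RNA. Both groups had thus been obese, had been moved to chow and carried an injected antibody, and no lean or uninjected mice were sequenced.

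BAFF is a survival factor for mature B cells, and its loss lowers the amount of antibody that B cells make. IgG that coats a dead cell is read by Fc gamma receptors on macrophages: Fcgr1, Fcgr3 and Fcgr4 signal through the ITAM motif of the gamma chain, which recruits the kinase Syk and starts engulfment, whereas Fcgr2b carries an ITIM motif that recruits the phosphatase SHIP-1 (Inpp5d) and restrains the same response. The comparison therefore asked whether the receptor side of this pathway differed while the antibody side was being lowered. Fcgrt (FcRn) instead returns IgG from endosomes to the circulation, Pigr carries polymeric IgA and IgM across epithelia, and Trim21 binds antibody that has entered the cytosol with a pathogen.

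The libraries held 13562340 to 18548024 counts. The library of control mouse 1 stood apart: its genes lay a median of 0.249 log2 units from the median of the 8 mice, against 0.0928 to 0.137 in the others, and it held the highest value for 26.7% and the lowest for 26.2% of all genes tested. Results that rest on it are given with and without it. The macrophage markers Adgre1, Csf1r and Cd68 were present in every mouse, and the summed level of the 10 macrophage markers was 7940 to 12904 CPM (read counts scaled for library size, after TMM correction) in control Ab-treated mice and 9054 to 10563 CPM in anti-BAFF Ab-treated mice. Anti-BAFF mouse 5 carried the most neutrophil transcripts (230.4 CPM over 10 markers, against 35.9 to 102 CPM in the others), and control mouse 2 and anti-BAFF mouse 7 the most epididymis transcripts (2238 and 2153 CPM over the list, against 18.7 to 842 CPM). In bulk tissue, fewer cells of a type and less RNA per cell cannot be told apart.

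Promoter sequences of the members are shown first, because 3 of the activating receptor genes and Trim21 carry short motifs known from myeloid and interferon-driven genes. All 8 members matched a RefSeq promoter of 300 bases (250 before to 50 after the annotated start, GRCm38.p6). Searched on both strands were GAGGAA, a core bound by the myeloid factor PU.1, the gamma-interferon activated site TTCNNNGAA, and the interferon-stimulated response element, GAAA followed by any 2 bases and GAAA again. Of 32851 mouse promoters, 28.3% held the first, 8.30% the second and 3.44% the third. For Fcgr3 the first of its 2 RefSeq promoters is shown. Capitals mark the matches, each read 5′ to 3′ in the direction of the gene.
Fcgr1 (chr3:96293920-96294219, minus strand): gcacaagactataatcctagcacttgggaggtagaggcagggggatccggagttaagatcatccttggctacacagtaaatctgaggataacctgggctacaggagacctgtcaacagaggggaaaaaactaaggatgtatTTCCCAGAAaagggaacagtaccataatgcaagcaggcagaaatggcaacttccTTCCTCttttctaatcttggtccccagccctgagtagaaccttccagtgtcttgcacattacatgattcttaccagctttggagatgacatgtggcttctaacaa
Fcgr3 (chr1:171059354-171059653, minus strand): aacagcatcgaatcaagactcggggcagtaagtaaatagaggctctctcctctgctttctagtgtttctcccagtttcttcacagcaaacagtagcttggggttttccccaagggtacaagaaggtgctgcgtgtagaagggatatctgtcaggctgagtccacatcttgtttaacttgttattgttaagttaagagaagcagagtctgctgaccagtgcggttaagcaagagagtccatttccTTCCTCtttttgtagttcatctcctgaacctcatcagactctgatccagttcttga
Fcgr4 (chr1:171018676-171018975, plus strand): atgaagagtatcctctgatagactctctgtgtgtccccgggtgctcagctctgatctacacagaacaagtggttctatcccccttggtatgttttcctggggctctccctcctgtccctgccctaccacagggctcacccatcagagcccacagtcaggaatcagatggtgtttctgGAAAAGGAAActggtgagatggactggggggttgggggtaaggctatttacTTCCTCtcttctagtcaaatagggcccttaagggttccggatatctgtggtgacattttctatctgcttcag
Trim21 (chr7:102565433-102565732, minus strand): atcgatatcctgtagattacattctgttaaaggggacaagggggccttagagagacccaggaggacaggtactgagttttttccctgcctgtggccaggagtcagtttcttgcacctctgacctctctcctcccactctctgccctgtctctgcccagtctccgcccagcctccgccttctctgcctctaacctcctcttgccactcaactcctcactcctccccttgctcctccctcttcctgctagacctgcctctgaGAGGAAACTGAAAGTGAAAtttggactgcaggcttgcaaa

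The PU.1-type core, in capitals as its reverse complement TTCCTC, ended 50 bases before the annotated start in Fcgr1, 1 base before it in Fcgr3 and 17 bases before it in Fcgr4. Fcgr1 also held a gamma-interferon activated site, TTCCCAGAA, 109 to 101 bases before the start. Fcgr4 held an interferon-stimulated response element, GAAAAGGAAA, 73 to 64 bases before it. In Trim21 the core at bases 11 to 16 after the start ran into 2 overlapping interferon-stimulated response elements at bases 14 to 23 and 20 to 29, so that the capitals form 1 stretch. The Pigr promoter held a gamma-interferon activated site at bases 40 to 48, and those of Fcgr2b, Fcer1g and Fcgrt held none of these letters. In all, 4 of the 8 members held the PU.1-type core and 2 each the other motifs. A match describes the letters of this window and does not show that a factor binds there.

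Of the members, Fcgr2b (170958617 to 170976547), Fcgr4 (171018920 to 171029761), Fcgr3 (171051174 to 171064935) and Fcer1g (171229572 to 171234365) lie together on mouse chromosome 1 (mm10). This span of 275.7 kb holds 17 annotated genes, of which 9 were tested. Pigr lies on the same chromosome before this span (130826684 to 130852249), Fcgr1 on chromosome 3 (96282909 to 96293969), and Fcgrt (45092990 to 45103851) and Trim21 (102557921 to 102565486) on chromosome 7. Genes that overlap a member took at most 0.05003% as many counts as the member. Fcgr2b and Fcgr3 encode nearly identical extracellular parts, and how reads shared by them were counted is not given in the sources used here, so the split between these 2 genes carries that uncertainty.

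No difference between anti-BAFF Ab-treated and control Ab-treated mice was detected for any of the 8 members. Of the 8, 0 passed an adjusted p of 0.05, as 0.0564% of all genes tested did (edgeR, quasi-likelihood F test, adjusted over every gene tested). At an unadjusted p under 0.05 the count was also 0 of 8, against 1.90% of all genes tested, and DESeq2 called 0 of 8. In no member did the values of the 4 control and 4 anti-BAFF mice fall apart without overlap, as they did in 1.48% of all genes tested. The signs were evenly mixed, with 4 members above 0 and 4 below, and the median log2 fold change of the members was 0.01, beside 0.00 for all genes tested.

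**Figure D1:**
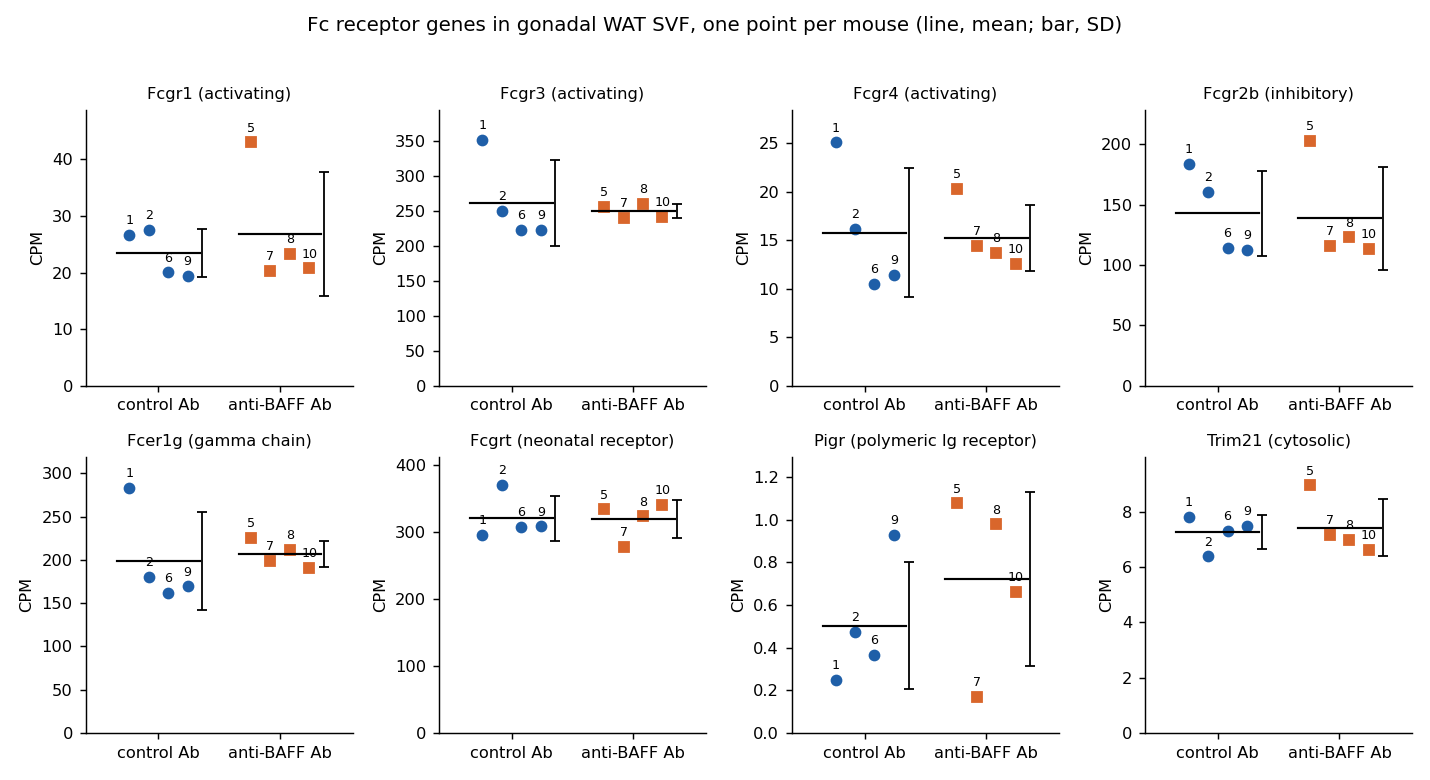
CPM (vertical axis, from 0) of each of the 8 members in the 4 control Ab-treated mice (circles) and the 4 anti-BAFF Ab-treated mice (squares), labelled by mouse number, with the group mean (line) and SD (bar). The groups overlapped for every member. Control mouse 1 was highest for Fcgr3, Fcgr4 and Fcer1g, and anti-BAFF mouse 5 for Fcgr1, Fcgr2b, Pigr and Trim21.

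Fcgr3, the low-affinity activating receptor for IgG complexes, was the most abundant of the Fc gamma receptors. It was at 351, 250.1, 223 and 223 CPM in control mice 1, 2, 6 and 9, and at 256, 240.3, 260.5 and 242 CPM in anti-BAFF mice 5, 7, 8 and 10. Control mouse 1 was the highest of all, and the anti-BAFF Ab-treated mice fell inside the control range, with an SD of 10.1 CPM against 61.2 CPM (n = 4 each). The log2 fold change was -0.07 (95% interval -0.40 to 0.26), with an adjusted p of 1.00 in edgeR. Without control mouse 1 it was 0.09 (-0.06 to 0.24).

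Fcgr1, the high-affinity receptor that binds IgG before it forms complexes, was at 26.7, 27.6, 20.04 and 19.5 CPM in control mice 1, 2, 6 and 9, and at 43.0, 20.3, 23.3 and 20.7 CPM in anti-BAFF mice 5, 7, 8 and 10. Mouse 5 stood above every other mouse, and the other 3 anti-BAFF mice lay inside the control range. The log2 fold change was 0.19 (95% interval -0.38 to 0.76, adjusted p of 1.00 in edgeR), and without anti-BAFF mouse 5 it turned to -0.15.

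Fcgr4, which binds complexes of IgG2 subclasses, was at 25.1, 16.1, 10.5 and 11.5 CPM in control mice 1, 2, 6 and 9, and at 20.3, 14.4, 13.7 and 12.5 CPM in anti-BAFF mice 5, 7, 8 and 10. Mice 1 and 5 were the highest of their groups, and the anti-BAFF values lay wholly within the control range. Its log2 fold change of -0.05 had a 95% interval of -0.69 to 0.58 (folds of 0.622 to 1.49, adjusted p of 1.00 in edgeR), so that sizeable differences in either direction lay within it. Without control mouse 1 the value was 0.24, and without anti-BAFF mouse 5 it was -0.23.

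Fcgr2b, the only inhibitory Fc gamma receptor, was at 184, 161, 114 and 113 CPM in control mice 1, 2, 6 and 9, and at 203, 116, 123 and 113 CPM in anti-BAFF mice 5, 7, 8 and 10. Mice 1, 2 and 5 formed the upper values and the other 5 mice lay between 113 and 123 CPM, whichever antibody they had received. The log2 fold change was -0.04 (95% interval -0.56 to 0.47, adjusted p of 1.00 in edgeR). It was 0.08 without control mouse 1 and -0.30 without anti-BAFF mouse 5 (adjusted p of 1.00 in edgeR).

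Fcer1g, the gamma chain that the activating receptors need for their surface expression and signal, was at 283, 179.9, 161 and 169 CPM in control mice 1, 2, 6 and 9, and at 226, 199, 212 and 190.4 CPM in anti-BAFF mice 5, 7, 8 and 10. Control mouse 1 was the highest of the 8 mice, while the other 3 control mice were the lowest. With all mice the log2 fold change was 0.06 (95% interval -0.33 to 0.45, adjusted p of 1.00 in edgeR). Without control mouse 1 it was 0.26 (0.09 to 0.44, SE 0.08), higher in 4 of 4 anti-BAFF mice than in each of the 3 remaining controls, and still not past the threshold (adjusted p of 0.350 in edgeR, unadjusted 0.00861). In that fit 10.5% of all genes tested had an unadjusted p under 0.05, and 11.8% had values that did not overlap between the groups. Fcer1g was the 1 member of 8 in either count, a share near that of all genes. Without both control mouse 1 and anti-BAFF mouse 5, a comparison added after the data were seen, the value was 0.21 (adjusted p of 0.441 in edgeR).

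Fcgrt was at 296, 371, 308 and 309 CPM in control mice 1, 2, 6 and 9, and at 334, 278, 324 and 341 CPM in anti-BAFF mice 5, 7, 8 and 10. Its lowest and highest mice, 7 and 2, differed by 1.33 times, the narrowest range of the 8 members. The log2 fold change of -0.01 had a 95% interval of -0.24 to 0.22, also the narrowest, which corresponds to folds of 0.848 to 1.17. B2m, the light chain with which FcRn pairs, had a log2 fold change of -0.01 (SE 0.08, adjusted p of 1.00 in edgeR).

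Trim21 was at 7.82, 6.38, 7.32 and 7.50 CPM in control mice 1, 2, 6 and 9, and at 8.95, 7.15, 6.98 and 6.62 CPM in anti-BAFF mice 5, 7, 8 and 10. Again mouse 5 was the highest and the other values were mixed between groups, with a log2 fold change of 0.03 (95% interval -0.29 to 0.36). Pigr was close to the limit of detection, with 4, 8, 5 and 15 counts in control mice 1, 2, 6 and 9 and 16, 3, 15 and 12 counts in anti-BAFF mice 5, 7, 8 and 10. A count of 0 would allow up to 3 counts (0.165 to 0.219 CPM in these libraries), and the lowest Pigr value, in anti-BAFF mouse 7, was at that limit. Its log2 fold change of 0.48 had a 95% interval of -0.82 to 1.79, so that neither direction was detectable at this depth.

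**Figure D2:**
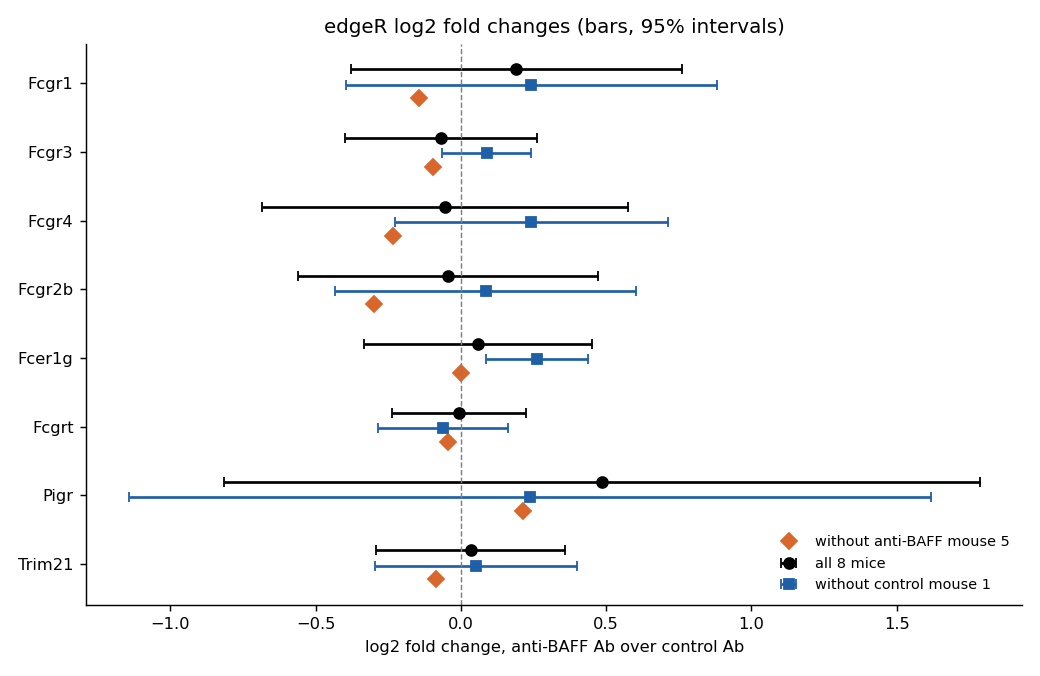
Log2 fold change of each member (horizontal axis, anti-BAFF Ab over control Ab, edgeR) with all 8 mice (circles), without control mouse 1 (squares), both with 95% intervals, and without anti-BAFF mouse 5 (diamonds, value only). The intervals with all mice span 0 for all 8 members, and leaving out control mouse 1 moves Fcer1g from 0.06 to 0.26.

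Levels can be set against each other per kilobase of the deposited gene length. On that scale Fcer1g led with 232 ± 44.4 CPM per kb (SD, n = 8 mice), followed by Fcgrt with 152 ± 13.7 and Fcgr3 with 147 ± 23.7 CPM per kb. These last 2 did not differ beyond their spread over mice. Within a mouse Fcgrt was the higher, except in control mouse 1 and anti-BAFF mouse 7. Fcgr2b was far lower at 24.3 ± 6.30 CPM per kb, over a deposited length of 5790 bases that is the longest of the members. Fcgr4 (12.3 ± 3.92 CPM per kb) and Fcgr1 (9.71 ± 3.04 CPM per kb) lay within each other's spread over mice. Within a mouse Fcgr4 was the higher, except in anti-BAFF mouse 5 (16.1 against 16.6 CPM per kb). Trim21 (1.98 ± 0.215 CPM per kb) and Pigr (0.152 ± 0.0872 CPM per kb) were the lowest.

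Per kb, Fcgr3 made up most of the Fc gamma receptor transcripts in every mouse. It held 68.5 to 78.8% of the summed CPM per kb of Fcgr1, Fcgr2b, Fcgr3 and Fcgr4. Fcgr2b held 11.1 to 16.3%, Fcgr4 5.08 to 7.55% and Fcgr1 3.91 to 7.72%. In CPM not divided by gene length, Fcgr3 held 49.0 to 62.3% and Fcgr2b 29.2 to 38.8%. The size of these shares thus depends on the scale. Anti-BAFF mouse 5 gave the lowest share of Fcgr3 and the highest shares of Fcgr2b and Fcgr1, and the groups overlapped for each receptor.

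The balance of activating to inhibitory receptors was taken as Fcgr1, Fcgr3 and Fcgr4 together over Fcgr2b, per kb. This ratio was 7.32, 6.04, 7.31 and 7.45 in control mice 1, 2, 6 and 9, and 5.15, 7.89, 8.0 and 8.05 in anti-BAFF mice 5, 7, 8 and 10. The group means were 7.03 ± 0.663 and 7.27 ± 1.42 (SD, n = 4 each), a difference smaller than the spread. In CPM not divided by gene length the ratio ran from 1.58 to 2.43, and the groups overlapped there too. Mouse 5 had the lowest ratio of all and the other 3 anti-BAFF mice the highest, so the overlap of the groups came from mouse 5.

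The gamma chain relative to the activating receptors it serves (Fcer1g over the sum of Fcgr1, Fcgr3 and Fcgr4, per kb) was 1.39, 1.23, 1.28 and 1.34 in control mice 1, 2, 6 and 9, and 1.43, 1.44, 1.42 and 1.39 in anti-BAFF mice 5, 7, 8 and 10. The group means were 1.31 ± 0.0707 and 1.42 ± 0.0245 (SD, n = 4 each), and the groups overlapped only in that control mouse 1 (1.392) lay above anti-BAFF mouse 10 (1.385). Because ratios over the members were built with their levels known, neither was given a test.

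**Figure D3:**
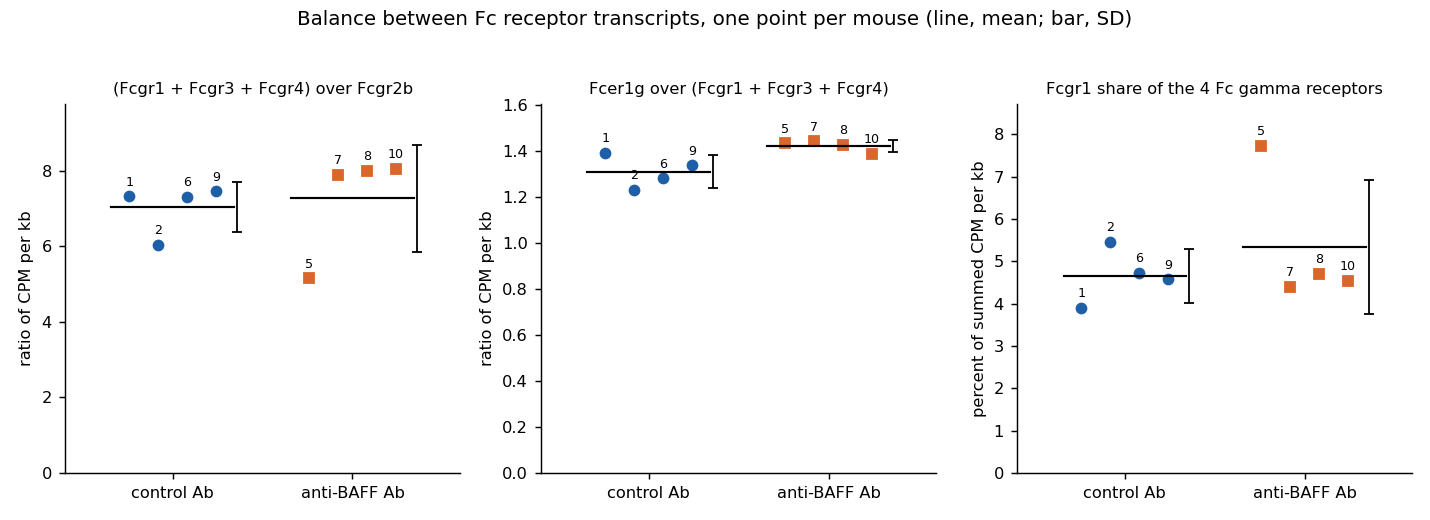
Ratios of CPM per kb (left and centre) and the share of Fcgr1 in the summed CPM per kb of the 4 Fc gamma receptors (right, percent) for each control Ab-treated mouse (circles) and anti-BAFF Ab-treated mouse (squares), with group mean (line) and SD (bar). Anti-BAFF mouse 5 has the lowest activating to inhibitory ratio (5.15) and the highest Fcgr1 share (7.72%), and the gamma chain ratio runs from 1.23 to 1.44.

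The levels of the Fc gamma receptors went with the macrophage markers of each library. A macrophage score was formed as the mean log2 CPM of the 10 macrophage markers, and ran from 8.58 in control mouse 6 to 9.05 in control mouse 1. Over the 8 mice of both groups it correlated with Fcgr4 (Pearson r = 0.90, exact permutation p = 0.00141, adjusted 0.00709 over 11 correlations; Spearman rho = 0.83, exact permutation p = 0.0154). For Fcgr2b r was 0.90 (exact permutation p = 0.00481, adjusted 0.0106; rho = 0.74 with p = 0.0458). For Fcgr3 it was 0.79 (exact permutation p = 0.00258, adjusted 0.00709; rho = 0.83 with p = 0.0154), and for Fcgr1 it was 0.76 (exact permutation p = 0.0150, adjusted 0.0275; rho = 0.83 with p = 0.0154). The adjusted permutation p of rho was 0.0338 for Fcgr1, Fcgr3 and Fcgr4, and 0.0720 for Fcgr2b. Without control mice 1 and 2, the mice farthest from the median score, r over the other 6 was 0.86 for Fcgr4, 0.86 for Fcgr2b, 0.82 for Fcgr3 and 0.90 for Fcgr1. The share of all genes tested that correlated as well with the score was not counted. Whether such r values are particular to the members is thus not known. Control mouse 1, with the top score, held the highest value for 26.7% of all genes tested.

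The gamma chain correlated with the score too (r = 0.74, exact permutation p = 0.0283, adjusted 0.0445), but by rank it did not pass (rho = 0.67, exact permutation p = 0.0831, adjusted 0.102). Fcgrt (r = 0.42, exact permutation p = 0.302, adjusted 0.332; rho = 0.38 with p = 0.360) and Trim21 (r = 0.23, exact permutation p = 0.593, adjusted 0.593; rho = 0.07 with p = 0.882) did not pass either way. Without control mice 1 and 2, r was 0.85 for Fcer1g, 0.69 for Fcgrt and 0.56 for Trim21. Neutrophil transcripts, Fcgr1 and Fcgr2b were all highest in anti-BAFF mouse 5. By summed CPM control mouse 6 came next (102 CPM), with Fcgr1 at 20.04 CPM and Fcgr2b at 114 CPM. By the mean log2 CPM of the 6 markers tested it was control mouse 1 (1.91, against 4.41 in mouse 5 and 1.73 in mouse 6). Control mouse 1 had Fcgr1 at 26.7 CPM and Fcgr2b at 184 CPM. The part of neutrophils in the values of mouse 5 was not tested.

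**Figure D4:**
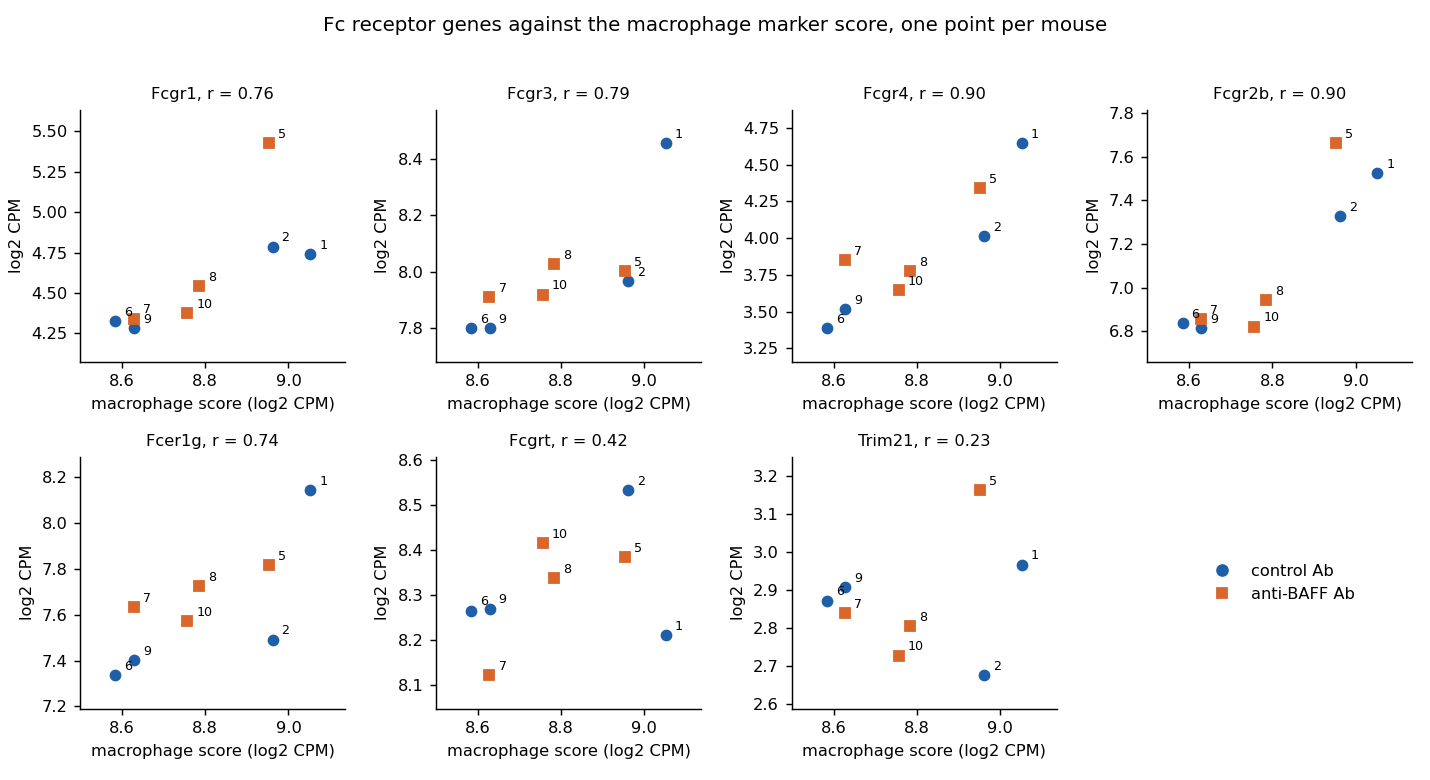
Log2 CPM of 7 members (vertical axes, not starting at 0) against the macrophage score (horizontal axis, mean log2 CPM of 10 markers) in control Ab-treated mice (circles) and anti-BAFF Ab-treated mice (squares), labelled by mouse number, with Pearson r over the 8 mice. The Fc gamma receptors climb with the score (r of 0.76 to 0.90), and Fcgrt and Trim21 scatter (r of 0.42 and 0.23).

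Among the members, the gamma chain went most closely with Fcgr3 (r = 0.93, exact permutation p = 0.00109, adjusted 0.00709; rho = 0.86, exact permutation p = 0.0107, adjusted 0.0338) and with Fcgr4 (r = 0.90, exact permutation p = 0.00231, adjusted 0.00709; rho = 0.83, exact permutation p = 0.0154, adjusted 0.0338). Without control mice 1 and 6 these r values were 0.79 and 0.68 over 6 mice. With Fcgr2b (r = 0.68, exact permutation p = 0.0579, adjusted 0.0796; rho = 0.74 with p = 0.0458) and with Fcgr1 (r = 0.52, exact permutation p = 0.196, adjusted 0.239; rho = 0.67 with p = 0.0831) the relation did not pass after adjustment, and without the same mice r was 0.51 and 0.64. As a description, Fcgr1 and Fcgr2b ran together at r = 0.92, with mouse 5 the highest for both, whereas Fcgrt ran at r between -0.32 and 0.54 with every other member.

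The genes whose log2 CPM over the 8 mice was most like a member's, of 15955 other genes tested, were Arg1 (r = 0.98), Aif1 (r = 0.97) and Spp1 (r = 0.96) for Fcgr1. In anti-BAFF mouse 5 the arginase gene Arg1 reached 121 CPM, against 2.60 to 8.81 CPM in the other mice, and the osteopontin gene Spp1 reached 409 CPM, against 59.2 to 143 CPM. For Fcgr4 they were Bst1, Xpo6 and Mad1l1 (r = 0.99 each), and for Fcer1g Asah1, Ap2m1 and Ostc (r = 0.99 each), all of them highest in control mouse 1. Fcgr3 was most like Dis3l (r = 0.99), Cic (r = 0.99) and Nono (r = 0.98), and Fcgr2b most like Adamts15 (r = 0.99), AI839979 (r = 0.98) and Atp5h (r = 0.97). Fcgrt was most like Cldn15 (r = 0.97), Tcn2 (r = 0.95) and AW551984 (r = 0.94), and Trim21 most like Coq4 (r = 0.95), Sp110 (r = 0.93) and Parvg (r = 0.93). For Pigr, near its limit of detection, they were Txk (r = 0.97), Tprgl (r = 0.97) and Gm47547 (r = 0.96). With 8 mice and this many genes, values of this size describe these libraries only.

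Among the antibody genes, those for the IgM heavy chain, the kappa and a lambda light chain and the J chain fell. Of the 12 listed constant region and J chain genes, 11 were tested, and 4 fell past an adjusted p of 0.05 (Ighm, Igkc, Iglc2 and Jchain; 0.0564% of all genes passed) while 0 rose, with a median log2 fold change of -2.15 beside 0.00 for all genes. The IgM heavy chain gene Ighm was at 1603, 1007, 1348 and 1642 CPM in control mice 1, 2, 6 and 9 and at 345, 160.0, 387 and 199.7 CPM in anti-BAFF mice 5, 7, 8 and 10 (log2 fold change -2.36, SE 0.30, adjusted p of 0.0448 in edgeR). Every control mouse was above every anti-BAFF mouse, and 1.48% of all genes tested had values that did not overlap. The kappa constant gene Igkc (log2 fold change -2.69, SE 0.35) and Jchain (-2.77, SE 0.35), whose product joins IgA and IgM into the polymers that Pigr carries, had the same adjusted p of 0.0448 in edgeR, and so did Iglc2 (-3.26, SE 0.40). These calls were near the threshold, and leaving out 1 mouse at a time gave 0 to 2 called antibody genes. Without control mouse 1 it was 0, with the lowest adjusted p at 0.107 in edgeR, a median of -2.31, and 10 of 11 genes lower at an unadjusted p under 0.05, where 10.5% of all genes passed. With all mice that count was also 10 of 11, where 1.90% of all genes passed.

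The IgG genes, which encode the ligands of the Fc gamma receptors themselves, were scarce in both groups. Ighg2b ran from 3.85 to 9.73 CPM in control Ab-treated mice and from 1.54 to 4.96 CPM in anti-BAFF Ab-treated mice (log2 fold change -1.26, adjusted p of 1.00 in edgeR). Ighg2c was at 0.806 CPM in control mouse 1 and 13.1 to 16.4 CPM in the other controls, against 0.450 to 5.42 CPM (log2 fold change -2.15, adjusted p of 1.00 in edgeR). Ighg1 (-1.43) and Ighg3 (-3.15) also overlapped between groups, and the Ighg3 value leaned on control mouse 9, at 37.8 CPM against 1.32 to 2.91 CPM in the other controls. Igha did not overlap, which held for 1.48% of all genes tested, at 18.2 to 50.6 CPM against 3.50 to 15.5 CPM (log2 fold change -1.60, adjusted p of 1.00 in edgeR). Transcripts of the fat pad do not report IgG that arrives from the blood, nor the antibody that was injected.

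**Figure D5:**
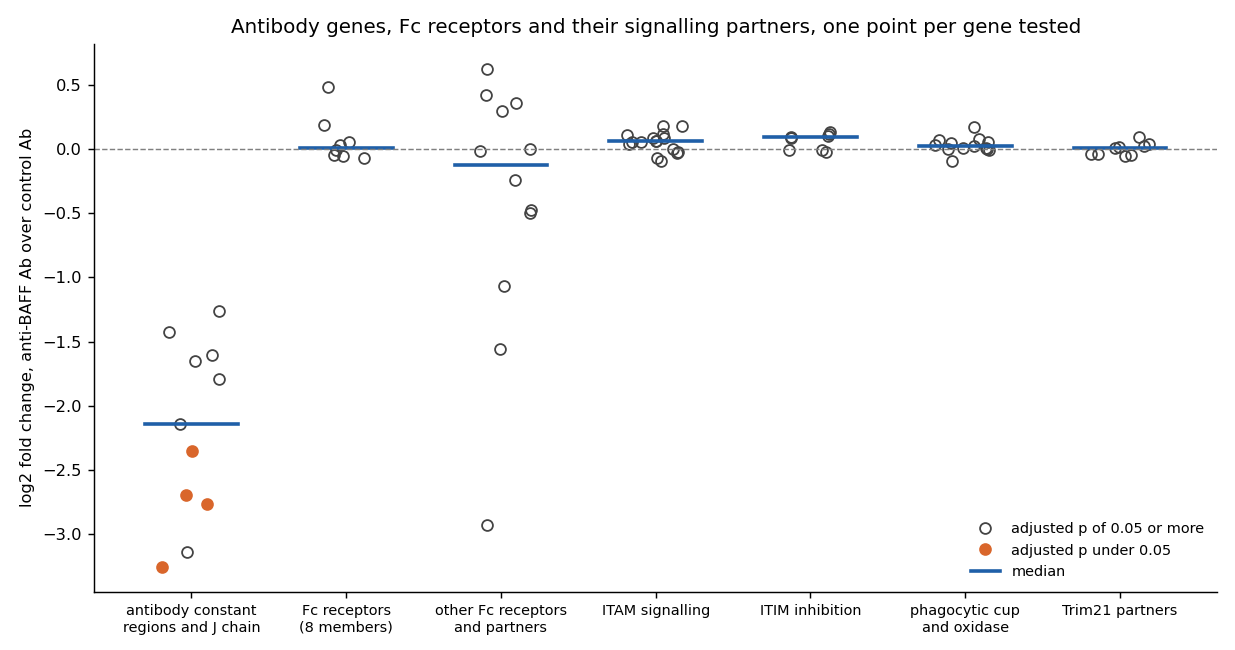
Log2 fold change (vertical axis, anti-BAFF Ab over control Ab, edgeR) of each gene tested in 7 lists, with the median of each list (line) and filled points for an adjusted p under 0.05. The antibody genes have a median of -2.15 and hold all 4 filled points, whereas the 8 Fc receptors and the ITAM, ITIM, phagocytic cup and Trim21 partner genes lie around 0.

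Other Fc receptors and receptor partners were listed beside the members, and 12 of 13 were tested. None passed an adjusted p of 0.05 in edgeR, 3 were lower at an unadjusted p under 0.05 (1.90% of all genes passed), and DESeq2 called those 3. They were the low-affinity IgE receptor Fcer2a (CD23; log2 fold change -2.93, SE 0.63, adjusted p of 0.537 in edgeR), the IgM receptor Fcmr (-1.56, SE 0.34, adjusted p of 0.577 in edgeR) and the Fc receptor-like gene Fcrla (-1.07, SE 0.24, adjusted p of 0.626 in edgeR). Their values did not overlap between the groups, which held for 1.48% of all genes, with Fcer2a at 1.68 to 2.79 CPM in control Ab-treated mice and 0 to 0.673 CPM in anti-BAFF Ab-treated mice. All 3 are known as B cell genes, and the B cell markers, whose list also holds Fcer2a, were lower alongside them, 8 of 11 at an unadjusted p under 0.05 (1.90% of all genes passed) with a median log2 fold change of -1.24. Their part in the lower receptor values was not tested, nor was their part in Fcgr2b and in the activating to inhibitory ratio.

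Downstream of the gamma chain, no difference was detected in the listed signalling genes either. Of 16 ITAM signalling genes, 0 passed an adjusted p of 0.05 and 0 an unadjusted p under 0.05 in edgeR, with log2 fold changes from -0.09 to 0.19 and a median of 0.06. Over all genes tested, 0.0564% passed the adjusted and 1.90% the unadjusted threshold. Counts of 0 in lists of this size are near those shares and are not particular to these genes. Syk was at 0.05 (SE 0.14), and among the largest were the adaptor Lcp2 (0.18, SE 0.12) and the kinase Fgr (0.12, SE 0.34). The 8 genes of ITIM inhibition also gave 0 by either count (median 0.09), with Inpp5d at -0.02 and the SH2 phosphatase Ptpn6 at -0.01, and Dok1 (0.14), Clec12a (0.12) and Pirb (0.10) as the largest. Of 13 genes of the phagocytic cup and the oxidase, 0 passed either count (median 0.02), the largest being the oxidase subunits Ncf4 (0.18), Ncf1 (-0.09) and Cybb (0.08). Of 9 Trim21 partners and cytosolic sensing genes, 0 passed either count (median 0.01), the largest being Vcp (0.10), Irf7 (-0.05) and Tmem173 (-0.04). Tyrobp, the other ITAM adaptor of macrophages, was at 0.00 (SE 0.18).

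Leaving out control mouse 1 moved the medians of these lists to 0.26 for ITAM signalling, 0.22 for ITIM inhibition, 0.20 for the phagocytic cup and oxidase and 0.04 for the Trim21 partners. Without it, an unadjusted p under 0.05 with higher values in anti-BAFF Ab-treated mice was found in 7 of 16 ITAM genes, 5 of 8 ITIM genes, 6 of 13 phagocytic cup and oxidase genes and 2 of 9 Trim21 partners, where 10.5% of all genes tested passed in either direction. No gene of these lists passed an adjusted p of 0.05 in edgeR, the lowest adjusted p being 0.298. Among them were Lcp2 (log2 fold change 0.30, SE 0.06), Pirb (0.41, SE 0.10) and Cybb (0.28, SE 0.06). Each was higher in all 4 anti-BAFF mice than in the 3 remaining controls, as was Tyrobp (0.23, SE 0.07). Without control mouse 1, the groups did not overlap, in either direction, for 11.8% of all genes tested. Markers of other cell types moved in the same fit. An unadjusted p under 0.05 was reached by 6 of 7 mast cell markers, all higher (median 0.63), by 3 of 10 macrophage markers, all higher (Cd68 0.28, Itgam 0.35 and Lyz2 0.23), and by 5 of 7 mesothelium markers, all lower (median -0.40). Their part in the values of Fcer1g and the signalling genes was not tested.

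Within the chromosome 1 span that runs from Fcgr2b to Fcer1g, none of the 9 genes tested had an unadjusted p under 0.05 in edgeR, against 1.90% of all genes tested. The highest log2 fold change of the span was that of Fcer1g (0.06).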

How the data were processed

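Bulk RNA of the gonadal WAT SVF of 8 mice was sequenced as paired-end reads on a NovaSeq instrument, and the authors deposited raw read counts per gene with no normalization, on build mm10 per the labels. The aligner, counter, annotation release and strandedness are not given in the sources used here. The deposited gene length (bases per gene, unit other) was used for values per kb, and 0 columns were left out as unmapped.

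Counts were filtered with filterByExpr (minimum count 10), scaled by TMM, and tested with edgeR 4.0.16 (glmQLFit and glmQLFTest, treatment only) under R 4.3.3, with Benjamini-Hochberg adjustment over 15963 genes and intervals at 95%. The study's methods name FPKM and an adjusted p threshold, but no test. Values per mouse are CPM after TMM scaling. Correlations used log2 CPM (prior count 2) and two-sided exact permutation tests (scipy 1.17.1), with a smallest possible p of 2.48e-05. Alternatives were DESeq2 1.42.0 (Wald test), limma 3.58.1 on log2(FPKM + 1), other scalings and filters, and leaving out mice. Scripts were tested on simulated data.

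There were 4 mice per group and 13562340 to 18548024 counts per library. The edgeR p-values set the difference between groups against the variation between mice, which here includes that of library preparation. Limits of detection cover counting error only. The 8 members and all gene lists were chosen with earlier results of these data known. Named beside the members were genes past the threshold, or else the 3 of each list with the largest change, the IgG, IgM and IgA constant genes, B2m, Syk, Inpp5d, Ptpn6 and Tyrobp, and the 3 genes most like each member. Igha, Fcmr and the other genes without an adjusted call are given as values, and some genes that this rule names are not reported here.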

Additional observations from a re-analysis of the deposited data

Results flagged for a closer look

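In 20 groups of 4 mice (8 members and 2 ratios in each treatment), the gap between the most extreme mouse and its nearest neighbour was divided by the range of the group and set against a critical value of 0.829. It was exceeded in 6 groups, where chance gives about 1 in 20. Anti-BAFF mouse 5 was far above its group for Fcgr1 (43.0 CPM, against 20.3 to 23.3 CPM in the other 3) and for Fcgr2b (202.7 CPM, against 113 to 123 CPM), and its ratio of activating to inhibitory receptors was far below (5.15, against 7.89 to 8.05). Control mouse 1 was far above its group for Fcer1g (283 CPM, against 161 to 179.9 CPM). Control mouse 2 was far above for Fcgrt (370.7 CPM, against 296 to 309 CPM) and far below for the ratio of activating to inhibitory receptors (6.04, against 7.31 to 7.45). These values share mice and genes, so the 6 are not independent of each other.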

How the results depend on the processing

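No member passed an adjusted p of 0.05 under any of the alternatives run. Of 64 log2 fold changes with 1 mouse left out, 48 kept their sign and 16 turned; the ranges were -0.15 to 0.30 for Fcgr1, -0.14 to 0.089 for Fcgr3, -0.23 to 0.24 for Fcgr4, -0.30 to 0.085 for Fcgr2b, -0.028 to 0.26 for Fcer1g, -0.061 to 0.071 for Fcgrt, 0.22 to 0.96 for Pigr and -0.084 to 0.086 for Trim21. Without control mouse 2 and anti-BAFF mouse 7, Fcgr2b (0.079), Fcgrt (0.11) and Trim21 (-0.024) turned sign. Without control mouse 1 and anti-BAFF mouse 5, chosen after seeing the data, Fcgr1 (-0.081), Fcgr3 (0.076), Fcgr4 (0.074), Pigr (-0.019) and Trim21 (-0.050) turned. The count of antibody genes called, 4 with all mice, was 6 in DESeq2, 0 with the robust option, 0 to 2 with 1 mouse left out, and 0 without either of these pairs of mice. For other Fc receptors it was 0, and 3 in DESeq2. The cause of these shifts was not tested, beyond fewer mice in those fits. Over all genes edgeR called 9 lower and 0 higher, DESeq2 66 lower and 4 higher, and edgeR without a low count filter 19 lower. A minimum of 10 counts in every mouse removed Pigr and gave it no value. Of 22 correlation alternatives with a p, 20 kept their call, and the 11 with 2 mice left out, which have no p, kept their sign; by rank the macrophage score no longer passed with Fcgr2b (rho = 0.74, adjusted p = 0.0720, exact permutation) and Fcer1g (rho = 0.67, adjusted p = 0.102, exact permutation). No paired analysis was possible because the groups share no mouse numbers.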

Other observations

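The high-affinity IgE receptor shares the gamma chain, and its alpha chain gene Fcer1a was at 17.8, 6.92, 10.2 and 10.96 CPM in control mice 1, 2, 6 and 9 and at 13.0, 19.2, 14.8 and 14.5 CPM in anti-BAFF mice 5, 7, 8 and 10 (log2 fold change 0.42, SE 0.26, adjusted p of 1.00 in edgeR). The beta chain gene Ms4a2 was at 0.37 (SE 0.34, adjusted p of 1.00 in edgeR). The 7 mast cell markers, which include both, had log2 fold changes above 0 in every case, with a median of 0.44, 0 past an adjusted p of 0.05 and 3 at an unadjusted p under 0.05. Without control mouse 1 the median was 0.63, with 6 of 7 at an unadjusted p under 0.05 (10.5% of all genes passed) and 0 past the adjusted threshold. Fcer1a was then at 0.70 (SE 0.20, adjusted p of 0.337 in edgeR), higher in all 4 anti-BAFF mice than in the 3 remaining controls. In that fit the groups did not overlap for 11.8% of all genes tested. Kit, the stem cell factor receptor of mast cells, was at 47.2 to 65.1 CPM in control Ab-treated mice and at 74.2 to 85.2 CPM in anti-BAFF Ab-treated mice, with no overlap (log2 fold change 0.39, SE 0.11, adjusted p of 1.00 in edgeR). Over all genes tested, 1.90% passed an unadjusted p under 0.05 and 1.48% did not overlap between the groups. Kit is thus a value to look at again in other mice and no call here. Fcgr3 and Fcer1g are also made by mast cells, and the part of mast cells in their levels was not tested.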
